A study of Mus musculus with 14 samples.

Results

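The 10 genes described here belong to the antioxidant programme of the transcription factor NRF2: Nfe2l2, Keap1, Sqstm1, Hmox1, Nqo1, Srxn1, Txnrd1, Gsr, Gclc and Gclm. They were chosen by gene symbol from the array's annotation, out of 18193 genes with a probe set of their own. Each gene is given by its brightest probe set, the one with the highest mean log2 level over the 14 arrays, and its other probe sets serve as a check. The 10 genes have 21 probe sets, all of which passed the filter on low values, and the brightest probe set of every gene was above the threshold of that filter on all 14 arrays.

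Expression was measured in mouse liver, 1 array per sample, to compare the response to stress of the endoplasmic reticulum (ER) in a knock-out of the kinase PERK with that in wild type (WT). The lsPERK tunicamycin group (4 arrays) is liver of the knock-out genotype, named lsPERK in the labels, taken 6 h after 1 mg/kg tunicamycin. The WT tunicamycin group (4 arrays) is wild-type liver after the same dose and time. The lsPERK control and WT control groups (3 arrays each) are liver of the same genotypes given 0.3% DMSO. The labels do not give a time for the DMSO groups, nor the age and strain of the animals, the deleted part of the gene, or a promoter or cell type for the deletion. Whether each replicate is its own animal is not stated, and the p-values therefore rest on a spread between arrays that may be partly technical. Tunicamycin blocks N-linked glycosylation in the ER.

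NRF2, encoded by Nfe2l2, is held at a low level by KEAP1, which hands it to a CUL3 ubiquitin ligase for degradation. When oxidants or electrophiles modify KEAP1, or the autophagy receptor p62 occupies it, NRF2 builds up, pairs with a small MAF protein and binds antioxidant response elements in the genes of its programme. Much of this regulation acts on the NRF2 protein, which arrays do not measure. In liver the programme makes and recycles glutathione and thioredoxin, detoxifies quinones and degrades haem, and PERK has been described as one of the kinases that act on NRF2 in cultured cells.

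Promoters of 4 of the genes are printed because their RNA moved in contrasting ways: Sqstm1 and Srxn1 rose in WT liver, while Nqo1 and Gclm fell in both genotypes. Each sequence is the stretch from 250 bases before to 50 bases after the gene's start in RefSeq (GRCm38.p6), read 5′ to 3′ on the gene's strand. Capitals mark matches to 4 motifs searched on both strands: the antioxidant response element core TGACNNNGC, the CEBP-ATF element TGATGNAA, the AP-1 site TGANTCA and the ER stress element.
Sqstm1: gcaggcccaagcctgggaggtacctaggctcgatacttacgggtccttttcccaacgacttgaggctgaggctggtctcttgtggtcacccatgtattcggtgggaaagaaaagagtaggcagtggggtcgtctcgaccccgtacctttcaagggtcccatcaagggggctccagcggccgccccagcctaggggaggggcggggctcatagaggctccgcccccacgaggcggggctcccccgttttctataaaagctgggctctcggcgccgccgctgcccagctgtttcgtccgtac
Srxn1: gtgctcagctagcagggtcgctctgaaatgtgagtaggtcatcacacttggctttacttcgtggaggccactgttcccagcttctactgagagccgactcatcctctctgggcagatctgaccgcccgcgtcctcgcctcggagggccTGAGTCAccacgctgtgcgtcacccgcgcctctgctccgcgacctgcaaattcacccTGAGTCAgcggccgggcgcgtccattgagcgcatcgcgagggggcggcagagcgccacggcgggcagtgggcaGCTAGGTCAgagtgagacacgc
Nqo1: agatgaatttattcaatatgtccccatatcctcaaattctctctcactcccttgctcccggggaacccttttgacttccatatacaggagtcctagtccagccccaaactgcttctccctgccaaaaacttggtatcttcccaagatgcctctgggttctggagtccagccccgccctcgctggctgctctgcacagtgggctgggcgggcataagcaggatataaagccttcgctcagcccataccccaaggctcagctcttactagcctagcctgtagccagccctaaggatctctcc
Gclm: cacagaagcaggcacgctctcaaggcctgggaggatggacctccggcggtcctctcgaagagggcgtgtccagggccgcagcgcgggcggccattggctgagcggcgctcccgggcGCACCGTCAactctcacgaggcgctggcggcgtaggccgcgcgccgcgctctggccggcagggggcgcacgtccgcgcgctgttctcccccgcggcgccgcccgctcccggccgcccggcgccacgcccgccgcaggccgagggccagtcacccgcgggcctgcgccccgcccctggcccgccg

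The Sqstm1 window lies at chr11:50210771-50211070 (minus strand), the Srxn1 window at chr2:152105274-152105573 (plus strand), the Nqo1 window at chr8:107403156-107403455 (minus strand) and the Gclm window at chr3:122245307-122245606 (plus strand). In Srxn1 the antioxidant response element core matched on the opposite strand at bases 29 to 37 after the start, and the AP-1 site matched at bases −102 to −96 and −45 to −39. In Gclm the core matched at bases −134 to −126 on the opposite strand. The Nfe2l2 promoter held a core at bases −240 to −232, 1 of the 3 annotated Txnrd1 promoters held one, and the Keap1 promoter held none of the 4 motifs, nor did those of Sqstm1 and Nqo1. Of 32851 promoters of the same length in the table, 12.4% held the core, 7.81% the AP-1 site, 3.97% the CEBP-ATF element and 0.119% the ER stress element. These matches are letters in a window and not measured binding sites. Bases more than 250 before or 50 after the start were not searched, so a gene without a match may hold the motif elsewhere. Entries were found for 7 of the 10 genes. No entry was found for Hmox1, Gclc and Gsr.

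Eif2ak3, which encodes PERK, averaged 283 ± 33.8 in lsPERK tunicamycin liver and 1917 ± 336 in WT tunicamycin liver (SD, n = 4 each), and 140.1 ± 15.7 in lsPERK control liver against 348 ± 102 in WT control liver (n = 3 each). Between the tunicamycin groups the log2 difference was −2.75 (limma adjusted p = 1.47e-07). Between the DMSO groups it was −1.27, with no overlap of the arrays, and was not called (adjusted p = 0.309, the smallest in that comparison). Eif2ak3 itself rose by 1.01 in lsPERK liver (adjusted p = 0.00283) and by 2.49 in WT liver (adjusted p = 2.92e-07). Whether its probes lie in the deleted part was not tested. Of the stress genes downstream of PERK, Ddit3 rose by 2.45 on the log2 scale in lsPERK liver and by 6.12 in WT liver, and Atf4 was not called in lsPERK liver (0.07, adjusted p = 0.851) and rose by 1.86 in WT liver. Xist, the RNA of the inactive X chromosome, was high on 2 of 4 lsPERK tunicamycin, 1 of 4 WT tunicamycin, 2 of 3 lsPERK control and 1 of 3 WT control arrays, so both kinds of array occur in every group. Of 5 hepatocyte markers, 0 were called in lsPERK liver and 1 was called higher in WT liver. Their summed levels ran from 84700 to 91510 in lsPERK tunicamycin and 85800 to 91700 in lsPERK control liver. They ran from 91480 to 95830 in WT tunicamycin and 88130 to 90430 in WT control liver, without overlap. Those of 5 pericentral hepatocyte markers ran from 47910 to 54060 in lsPERK tunicamycin, 46460 to 49910 in WT tunicamycin, 52290 to 59220 in lsPERK control and 53200 to 57770 in WT control liver. The 2 WT groups did not overlap in this sum, and 1 of the 5 (Slc1a2) was called lower in lsPERK liver and 3 (Slc1a2, Glul and Cyp1a2) in WT liver. Of 5 endothelial markers, 0 were called in lsPERK liver and 2 were called lower in WT liver. The 2 lsPERK groups overlapped in the pericentral sum. The median log2 difference was −0.27 in lsPERK liver and −0.47 in WT liver for the pericentral markers, and −0.34 and −0.07 for the endothelial ones. Differences were positive for 2 pericentral markers in lsPERK liver and 1 in WT liver, and for 1 endothelial marker in each. Elsewhere, 1 cholangiocyte marker was called higher in lsPERK liver, and 1 stellate and 1 macrophage marker were called lower in WT liver. The called pericentral and endothelial markers fell, as did Nqo1 and Gclm in both genotypes and Gsr and most called detoxification genes in WT liver. The part of these markers in those results was not tested. The 3′ to 5′ ratio of β-actin signal, a sign of RNA quality, was 0.59 to 0.78 on the log2 scale in lsPERK tunicamycin, 0.66 to 1.21 in WT tunicamycin, 0.58 to 1.04 in lsPERK control and 1.0 to 1.26 in WT control liver. With this ratio as a covariate 4 calls among the 10 genes were lost: Nfe2l2 in WT liver (0.38, adjusted p = 0.0543), Srxn1 and Gclm in lsPERK liver (0.83 and −0.46, adjusted p = 0.0871 and 0.0988) and Srxn1 between the genotypes under tunicamycin (−0.71, adjusted p = 0.0610). In these bulk samples, fewer cells of a type and less RNA per cell cannot be told apart.

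Under tunicamycin, 1 of the 10 genes rose (Srxn1) and 2 fell (Nqo1 and Gclm) in lsPERK liver, while 4 rose (Sqstm1, Hmox1, Srxn1 and Nfe2l2) and 3 fell (Nqo1, Gsr and Gclm) in WT liver. A gene was called where limma's adjusted p, by Benjamini-Hochberg over the 12085 genes tested, was under 0.05. By that rule 8.42% of all genes were called higher and 7.27% lower in lsPERK liver, 15.7% in either direction. In WT liver 20.7% of all genes were called higher and 26% lower, 46.7% in either direction. Comparing lsPERK with WT liver under tunicamycin, 1 gene was higher (Gsr) and 3 were lower (Sqstm1, Hmox1 and Srxn1), against 18.5% and 16.8% of all genes (35.3% in either direction). The tunicamycin response itself differed between the genotypes for 3 genes: it was more positive in lsPERK liver for Gsr and more negative for Sqstm1 and Hmox1, beside 10.2% and 9.67% of all genes (19.9% in either direction). Between lsPERK control and WT control liver 0 of the 10 genes were called, with 0% of all genes called. That comparison had 512 of 12085 genes at an unadjusted p under 0.05 and a smallest adjusted p of 0.309 in limma. No more is read from these counts of 10 genes than that the calls ran in both directions.

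The median log2 difference of the 10 genes was −0.07 in the lsPERK response and −0.17 in the WT response, against −0.02 and −0.13 for all genes tested. Under tunicamycin the median of lsPERK minus WT was −0.11 for the 10 genes and 0.05 for all genes. The scale of the arrays matters, and not only for small changes. The median WT response of all genes was −0.13 after the quantile normalization used here, 0.30 in the values as deposited and 0.01 with each array centred on its median. Relative to these medians, the 7 genes called in WT liver kept their direction after quantile normalization and as deposited. Centring shifts the difference of every gene by the same amount, so it adds no further check once the median is subtracted.

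**Figure D1:**
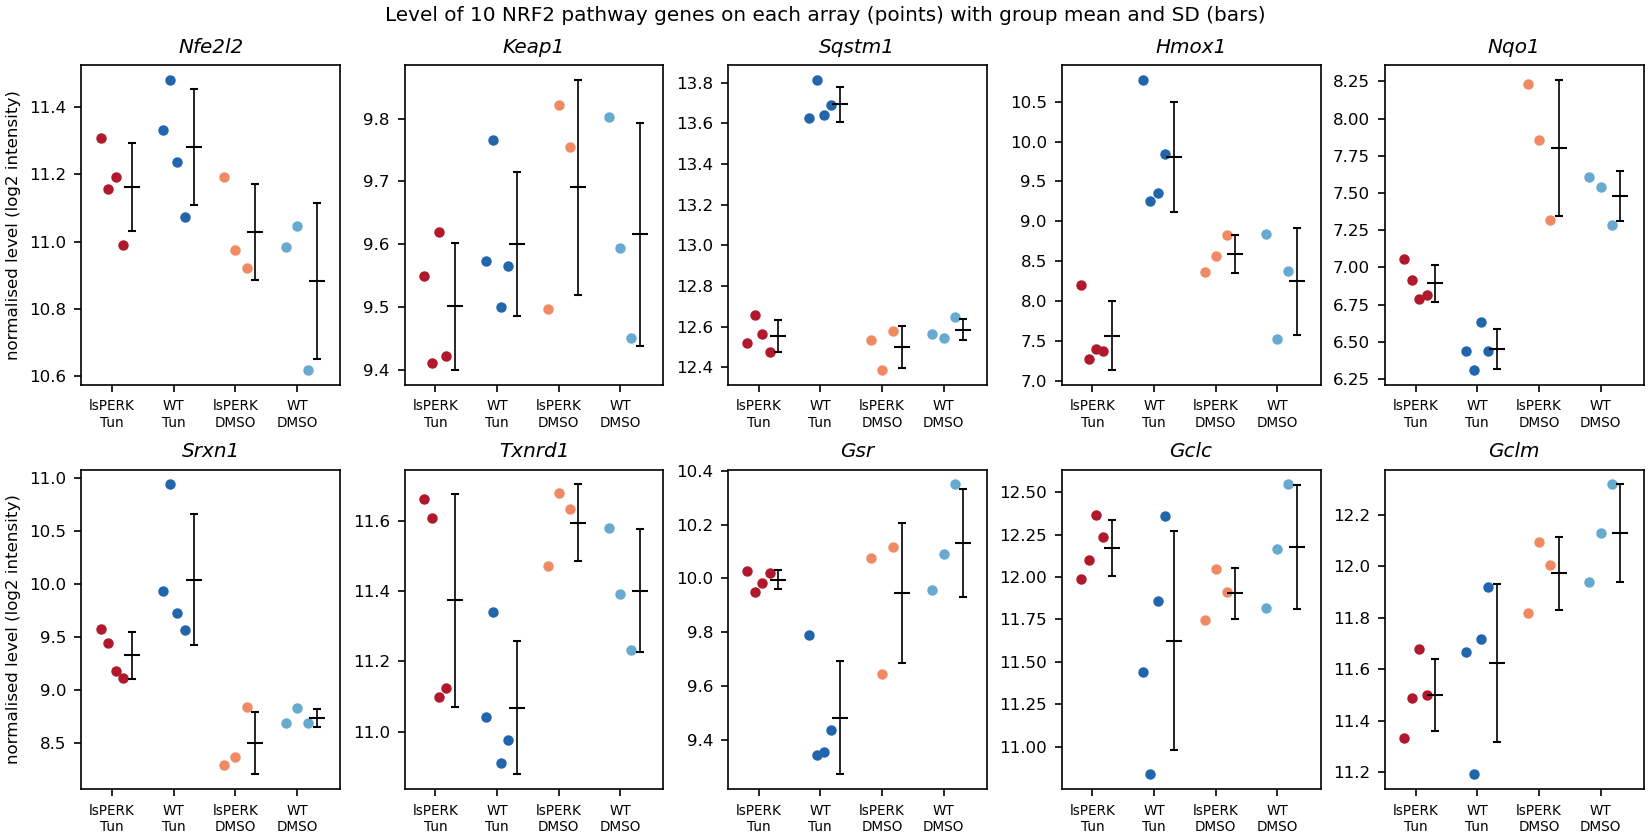
Normalised level of each of the 10 genes on a log2 intensity scale (vertical axis, its own range in each panel) on every array, with lsPERK tunicamycin, WT tunicamycin, lsPERK control and WT control from left to right. Points are arrays and bars are group means with SD. The 4 WT tunicamycin arrays stand apart from all other arrays for Sqstm1 and Hmox1, while both tunicamycin groups lie below both control groups for Nqo1.

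The plot of levels by array shows 3 shapes among the genes: a group of WT tunicamycin arrays alone at the top (Sqstm1, Hmox1), both tunicamycin groups displaced the same way (Srxn1 upward, Nqo1 and Gclm downward) and WT tunicamycin lowest in mean, with 1 of its arrays above 1 lsPERK control array (Gsr). Keap1, Txnrd1 and Gclc had no call in any comparison by their brightest probe set.

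Nfe2l2, which encodes NRF2 itself, rose modestly in WT liver. It read 2538, 2284, 2338 and 2036 on the lsPERK tunicamycin arrays and 2580.1, 2859, 2412 and 2153 on the WT tunicamycin arrays. It read 2338, 2013 and 1941 on the lsPERK control arrays and 2025, 2116 and 1571 on the WT control arrays. All 4 WT tunicamycin arrays were above the 3 WT control arrays, and the 2 lsPERK groups overlapped. The log2 difference was 0.13 in lsPERK liver (adjusted p = 0.549) and 0.40 in WT liver (SE 0.13, 1.32-fold, limma adjusted p = 0.0192). The other Nfe2l2 probe set was higher in WT liver too, by 0.59 (adjusted p over all probe sets = 0.0439). Without WT control replicate 3, the lowest array, the WT difference was 0.26 and was not called (adjusted p = 0.116), nor was it without WT tunicamycin replicate 2, the highest array (0.33, adjusted p = 0.0512). The 2 responses were not shown to differ (difference −0.27, 95% interval −0.65 to 0.12).

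Keap1, which encodes the sensor that delivers NRF2 to the proteasome, had no call. It averaged 726 ± 51.3 in lsPERK tunicamycin and 778 ± 63.6 in WT tunicamycin liver (SD, n = 4 each), and 830.3 ± 95.4 in lsPERK control and 789 ± 97.7 in WT control liver (n = 3 each). The 4 groups overlapped. The 95% interval of the log2 difference was −0.44 to 0.06 for the lsPERK response and −0.27 to 0.24 for the WT response, and the second probe set was not called either.

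Sqstm1 encodes p62, a receptor of selective autophagy that binds KEAP1 and whose gene is itself an NRF2 target. It read 5866, 6461, 6049 and 5687 in lsPERK tunicamycin liver, against 12646, 14408, 12771 and 13238 in WT tunicamycin liver. In the DMSO groups it read 5932, 5351 and 6123 in lsPERK liver and 6058, 5979.6 and 6406 in WT liver. The WT tunicamycin arrays lay above all 10 other arrays, and the other 3 groups overlapped. The gene averaged 6016 ± 332 in lsPERK tunicamycin, 13265 ± 803 in WT tunicamycin (SD, n = 4 each), 5802 ± 402 in lsPERK control and 6148 ± 227 in WT control liver (n = 3 each). Its log2 response was 0.05 in lsPERK liver (95% interval −0.10 to 0.20, adjusted p = 0.688) and 1.11 in WT liver (SE 0.07, 2.16-fold, limma adjusted p = 4.88e-08). Under tunicamycin its level in lsPERK liver was below that in WT liver by a log2 difference of −1.14 (2.21-fold, adjusted p = 5.475e-08), and the responses differed by −1.06 (SE 0.10, adjusted p = 2.6e-05). The dimmer Sqstm1 probe set gave 1.20 in WT liver (adjusted p = 0.00747) and −1.39 for lsPERK against WT under tunicamycin (adjusted p = 0.00263). With that probe set the difference of responses was −0.84 and was not called (adjusted p = 0.242). All 3 Sqstm1 calls of the brighter probe set held in every alternative run, of which the one on Xist-high arrays has a lone WT array per treatment.

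Hmox1 encodes haem oxygenase 1, the inducible enzyme that opens the haem ring to give biliverdin, iron and carbon monoxide. It read 295, 155, 168 and 166 in lsPERK tunicamycin liver, against 1754, 612, 652 and 920.0 in WT tunicamycin liver. It read 329, 378 and 456 in lsPERK control liver and 459.5, 184 and 332 in WT control liver. The WT tunicamycin arrays were all above the WT controls, and the lsPERK tunicamycin arrays were all below the lsPERK controls. WT tunicamycin replicate 1 was the highest array of its group and lsPERK tunicamycin replicate 1 the highest of its own.

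In lsPERK liver the log2 difference of Hmox1 was −1.02 (95% interval −1.81 to −0.23) and did not pass the test (adjusted p = 0.0780). Without lsPERK tunicamycin replicate 1 it was −1.24 and was called (adjusted p = 0.0461), as it was without WT tunicamycin replicate 1 (−1.02, adjusted p = 0.0362). In WT liver Hmox1 rose by 1.56 (SE 0.37, 2.95-fold, limma adjusted p = 0.00314). Under tunicamycin lsPERK liver was lower than WT liver by −2.24 (4.74-fold, adjusted p = 1.72e-04), and the difference of responses was −2.58 (SE 0.52, adjusted p = 0.00378). Among the Xist-high arrays alone, with 1 WT array per treatment, the WT response of Hmox1 was 0.41 (adjusted p = 0.537), against 2.04 among the Xist-low arrays (adjusted p = 0.00258). The difference between lsPERK and WT under tunicamycin was −2.61 among the Xist-low arrays (adjusted p = 0.00136). Among the Xist-high arrays it was −1.52 (adjusted p = 0.0415) and the difference of responses was −1.14 (adjusted p = 0.258), both with a lone WT array whose spread is taken from the other groups. The 2 subsets were not compared by a test.

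Hmox1 is also abundant in liver macrophages. The summed level of 8 Kupffer cell and macrophage markers ran from 5412 to 8975 in lsPERK tunicamycin, 3330 to 11010 in WT tunicamycin, 5207 to 16730 in lsPERK control and 5856 to 17580 in WT control liver. None of the 8 markers averaged under the filter threshold in any group. Their log2 differences were negative in both responses for 8 of 8, of which 0 were called in lsPERK liver and 1, Cd5l, was called lower in WT liver. Hmox1 moved the other way in WT liver and the same way, without a call, in lsPERK liver (−1.02). The part of these cells in the Hmox1 values was not tested. WT tunicamycin replicate 1, the highest Hmox1 array, also had the highest β-actin ratio of the 8 tunicamycin arrays, and the WT response of Hmox1 was called without that array and with the ratio as a covariate.

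Nqo1, a quinone reductase widely used to read out NRF2 activity, fell in both genotypes. It read 133, 121, 110.2 and 113 in lsPERK tunicamycin liver and 86.6, 79.3, 99.3 and 86.7 in WT tunicamycin liver. It read 300.3, 232 and 159.7 in lsPERK control liver and 195, 186 and 156 in WT control liver. In each genotype all tunicamycin arrays were below all DMSO arrays, and the lsPERK tunicamycin arrays were all above the WT tunicamycin arrays. The gene fell by 0.91 on the log2 scale in lsPERK liver (SE 0.19, adjusted p = 0.00503) and by 1.02 in WT liver (SE 0.19, 2.04-fold, limma adjusted p = 5.29e-04). The responses were not shown to differ (0.11, 95% interval −0.46 to 0.69), and lsPERK minus WT under tunicamycin was 0.44 (adjusted p = 0.0679). That difference was called without lsPERK control replicate 1 or 3, at 0.44 each time (adjusted p = 0.0359 and 0.0245). In the values as deposited the WT difference was −0.62 (adjusted p = 0.101), which is −0.92 relative to the median gene. In lsPERK liver the fall was −0.52 (adjusted p = 0.296) among Xist-low arrays, with 1 DMSO array, and −1.06 (adjusted p = 0.0371) among Xist-high arrays. Nqo1 has 1 probe set.

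**Figure D2:**
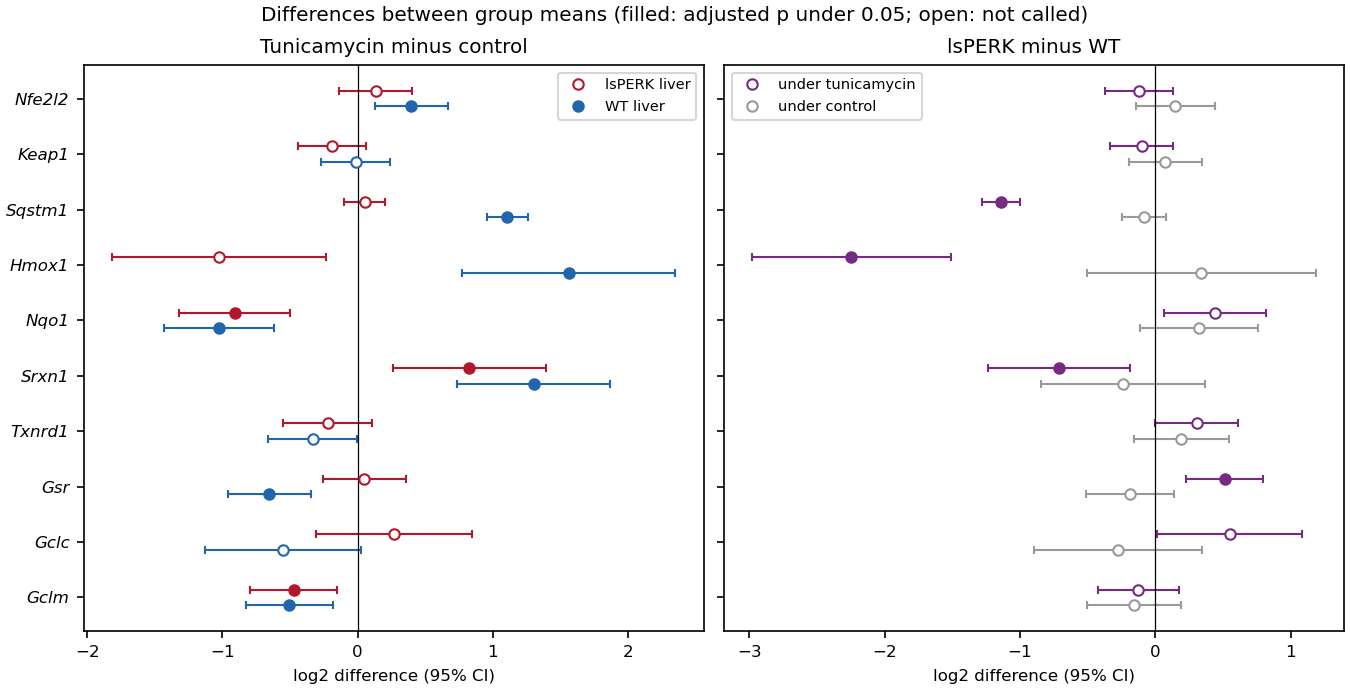
Log2 differences with 95% confidence intervals (horizontal axis) for the 10 genes, tunicamycin minus control on the left and lsPERK minus WT on the right. Filled points passed an adjusted p of 0.05 and open points did not. Sqstm1 and Hmox1 stand to the right of 0 in WT liver and to the left of 0 in lsPERK against WT under tunicamycin, while the Nqo1 and Gclm responses lie to the left of 0 in both genotypes.

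Srxn1 encodes sulfiredoxin, which returns over-oxidised peroxiredoxins to their active form. It read 763, 697, 579.8 and 553 in lsPERK tunicamycin liver and 978, 1967, 846 and 757 in WT tunicamycin liver. In the DMSO groups it read 313, 332 and 458 in lsPERK liver and 413, 457 and 414 in WT liver. Tunicamycin and DMSO arrays did not overlap in either genotype, and WT tunicamycin replicate 2 was the highest array. Srxn1 rose by 0.83 on the log2 scale in lsPERK liver (SE 0.26, 1.77-fold, adjusted p = 0.0476) and by 1.30 in WT liver (SE 0.26, 2.47-fold, limma adjusted p = 0.00104). The WT call held in all 27 alternatives, while the lsPERK call was lost in 17 of them, with a lowest value of 0.31.

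Under tunicamycin Srxn1 was called lower in lsPERK liver than in WT liver, by −0.71 (adjusted p = 0.0342), although the arrays overlapped. Without WT tunicamycin replicate 2 that difference was −0.41 and was not called (adjusted p = 0.0592). Nor was it called without lsPERK tunicamycin replicate 2, 3 or 4 or WT tunicamycin replicate 1, at −0.75, −0.66, −0.64 and −0.75 (adjusted p = 0.0521, 0.0800, 0.0889 and 0.0534). The responses were not shown to differ (−0.47, 95% interval −1.27 to 0.32). Srxn1 has 4 probe sets. Of the 3 dimmer ones, 1 was called in WT liver with a difference of 1.25 (adjusted p over all probe sets = 0.00425) and gave 0.92 in lsPERK liver (adjusted p = 0.0599). The 2 remaining ones were not called in any comparison, and 1 of them had a lsPERK difference of −0.29.

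Txnrd1, the cytosolic thioredoxin reductase, was not called. It read 3239, 3122, 2194 and 2235 in lsPERK tunicamycin liver and 2107, 2594, 1928 and 2017 in WT tunicamycin liver. It read 2837, 3278 and 3178 in lsPERK control liver and 3062, 2686 and 2405 in WT control liver. The highest 2 lsPERK tunicamycin arrays were the 2 Xist-high ones, as was the highest WT tunicamycin array. Its log2 response was −0.22 in lsPERK liver (95% interval −0.55 to 0.11) and −0.33 in WT liver (95% interval −0.66 to −0.004; adjusted p = 0.0907). With Xist status as a covariate the WT difference was −0.31 and was called (adjusted p = 0.0284). Without WT tunicamycin replicate 2 it was −0.43 (adjusted p = 0.0361), and lsPERK minus WT under tunicamycin was 0.40 (adjusted p = 0.0468). Its other 2 probe sets were not called.

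Gsr encodes glutathione reductase, which regenerates reduced glutathione with NADPH. It read 1044, 989, 1012 and 1037 in lsPERK tunicamycin liver, against 886, 649.8, 654 and 693 in WT tunicamycin liver. It read 1079, 800.5 and 1109.5 in lsPERK control liver and 993, 1090.5 and 1306 in WT control liver. The WT tunicamycin arrays were below the WT controls and below the lsPERK tunicamycin arrays, while the lsPERK groups overlapped. Its log2 difference was 0.05 in lsPERK liver (95% interval −0.26 to 0.36), and it fell by 0.65 in WT liver (SE 0.14, 1.57-fold, limma adjusted p = 0.00187). Under tunicamycin it was higher in lsPERK liver by 0.51 (adjusted p = 0.00765), and the responses differed by 0.70 (SE 0.20, adjusted p = 0.0257).

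The second Gsr probe set gave the same calls: −0.73 in WT liver, 0.59 for lsPERK against WT under tunicamycin and 0.63 for the difference of responses (adjusted p over all probe sets = 9.36e-04, 0.00382 and 0.0485). The Gsr calls rest on the scale of the arrays. In the values as deposited the WT difference was −0.09 (adjusted p = 0.787), and with median centring it was −0.38 (adjusted p = 0.0583). The difference of responses was 0.15 and 0.55 on those scales and was not called. Relative to the median gene, the WT response of Gsr was −0.52 after quantile normalization and −0.39 as deposited, a value that centring cannot change. The difference of responses was also not called without lsPERK control replicate 2 (0.55, adjusted p = 0.0647) or without WT control replicate 3 (0.59, adjusted p = 0.0728).

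Gclc and Gclm encode the catalytic and the modifier subunit of glutamate-cysteine ligase, the rate-limiting enzyme of glutathione synthesis. Gclm read 2582, 2869, 3275 and 2894 in lsPERK tunicamycin liver and 3255, 2338, 3365 and 3876 in WT tunicamycin liver. It read 3610.1, 4381 and 4108 in lsPERK control liver and 3923, 4486 and 5112 in WT control liver. Tunicamycin and DMSO arrays did not overlap in either genotype, and the 2 tunicamycin groups overlapped. Gclm fell by 0.47 in lsPERK liver (SE 0.15, adjusted p = 0.0474) and by 0.51 in WT liver (SE 0.15, 1.42-fold, limma adjusted p = 0.0132), both on the log2 scale. The dimmer Gclm probe set was lower by −0.55 in lsPERK liver (adjusted p = 0.0138) and by −0.98 in WT liver (adjusted p = 4.27e-05). The WT difference of the brighter probe set was −0.14 in the values as deposited (adjusted p = 0.594), −0.43 with median centring (adjusted p = 0.0782) and −0.41 without WT control replicate 3 (adjusted p = 0.0687). The lsPERK call was lost in 15 of 27 alternatives.

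Gclc read 4064, 4397, 5285 and 4816 in lsPERK tunicamycin liver, against 2783, 1828, 3721 and 5251 in WT tunicamycin liver. It read 3434, 4241 and 3859 in lsPERK control liver and 3607, 4592 and 5992 in WT control liver. The groups overlapped, and the WT tunicamycin arrays spread most widely, with an SD of 1458 around a mean of 3396. The brighter Gclc probe set was not called, with a log2 difference of 0.27 in lsPERK liver, −0.55 in WT liver (adjusted p = 0.110) and 0.82 between the responses (95% interval 0.002 to 1.64, adjusted p = 0.156). The dimmer Gclc probe set was called lower in WT liver (−0.88, adjusted p = 0.00206), higher in lsPERK than in WT liver under tunicamycin (0.63, adjusted p = 0.0158) and different between the responses (0.85, adjusted p = 0.0491). The 2 probe sets have the same sign in WT liver and disagree on the call. Without WT tunicamycin replicate 4 the brighter one was called as well, at −0.80 in WT liver (adjusted p = 0.0127), 0.80 for lsPERK against WT under tunicamycin (adjusted p = 0.0125) and 1.07 for the difference of responses (adjusted p = 0.0318). With Xist status as a covariate it was called at −0.59 in WT liver (adjusted p = 0.0323) and 0.66 for lsPERK against WT under tunicamycin (adjusted p = 0.0175). In all, Gclc was called in WT liver in 5 of 27 alternatives.

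**Figure D3:**
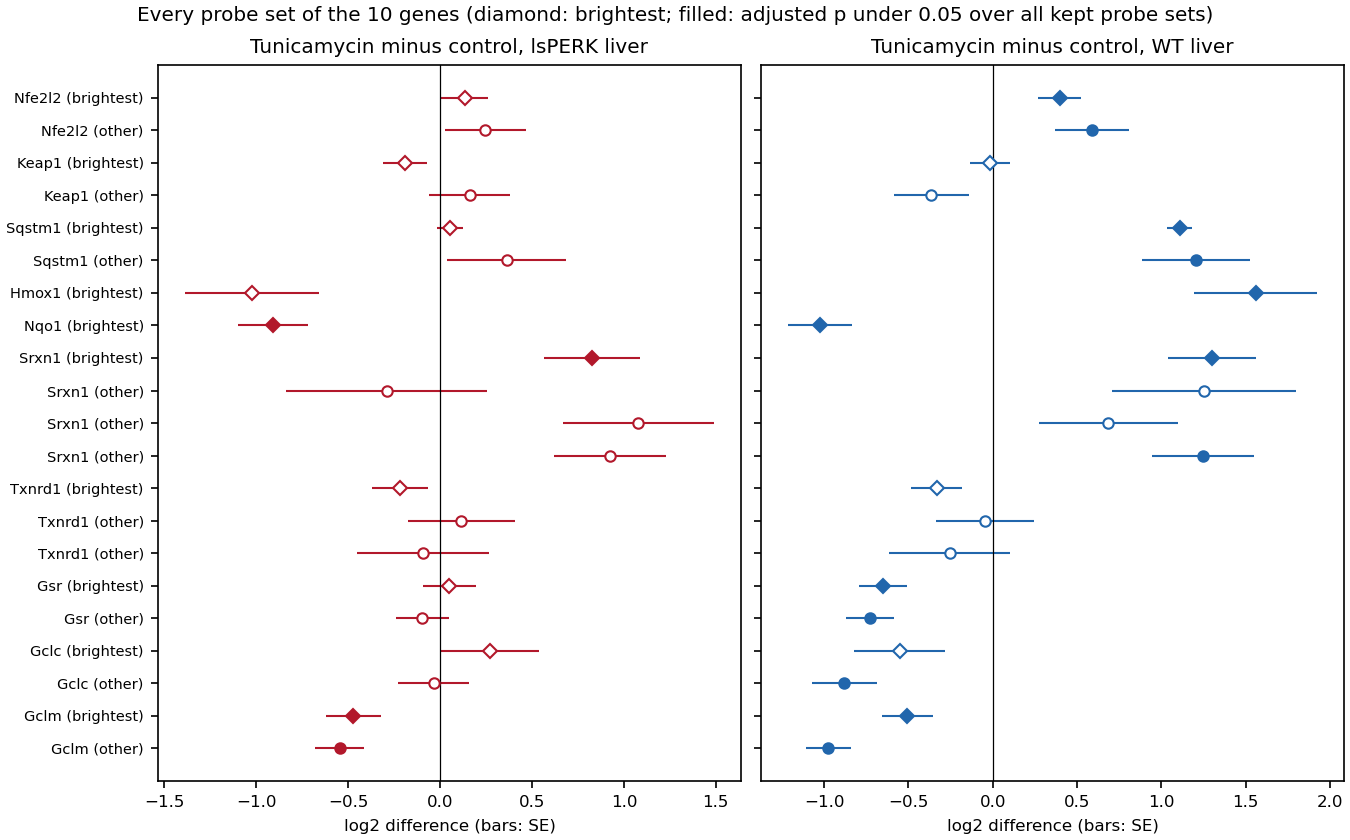
Tunicamycin minus control log2 difference with its SE (horizontal axis) for every probe set of the 10 genes, lsPERK liver on the left and WT liver on the right. Diamonds are the brightest probe set of a gene and circles the others, and filled symbols passed an adjusted p of 0.05 over all kept probe sets. Of the 8 genes with several probe sets, all probe sets of a gene have the same sign for 3 genes in lsPERK liver and for 8 in WT liver.

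Beyond the 10 genes, 91 further genes of the pathway were listed in 9 groups, and 77 of them were measured. In lsPERK liver 7 rose and 9 fell, and in WT liver 9 rose and 29 fell, beside 15.7% and 46.7% of all genes called. Under tunicamycin 21 were higher and 8 lower in lsPERK than in WT liver, beside 35.3% of all genes called. The responses differed for 25, more positive in lsPERK liver for 20 and more negative for 5, beside 19.9% of all genes. The number called in WT liver, 38 of 77, is near the share of all genes, and the counts of the single groups below are read against the same shares. The split in WT liver depends on the scale: 17 rose and 11 fell in the values as deposited, and 12 rose and 22 fell with median centring. For lsPERK against WT under tunicamycin the counts were 11 higher and 9 lower as deposited and 16 and 9 with centring. For the difference of responses they were 2 and 9 as deposited and 13 and 3 with centring. Of the genes called, 6 of 16 in lsPERK liver and 20 of 38 in WT liver were called the same way in the values as deposited. None was called between the DMSO groups. The genes named below kept their sign on all 3 scales in the comparisons given.

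**Figure D4:**
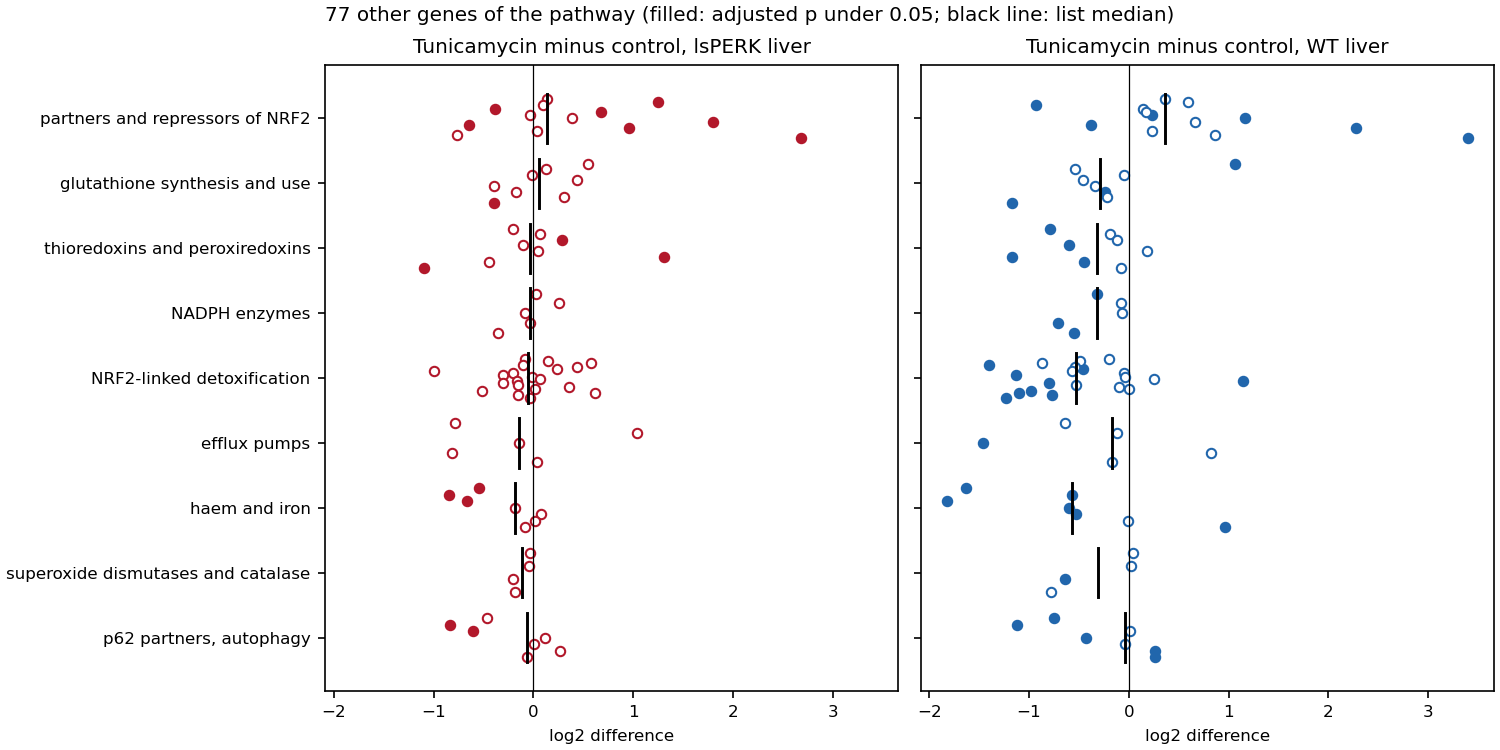
Tunicamycin minus control log2 difference (horizontal axis) of the 77 measured pathway genes in 9 groups, lsPERK liver on the left and WT liver on the right. Each point is a gene, filled where the adjusted p was under 0.05, and the black line is the median of its group. In WT liver the medians of 8 groups lie below 0 and that of the partners and repressors of NRF2 lies above it, beside an all-gene median of −0.13. As deposited, where the all-gene median was 0.30, the medians of the glutathione, thioredoxin, efflux pump and autophagy groups were above 0 as well.

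Among 13 measured partners and repressors of NRF2, 5 rose and 2 fell in lsPERK liver, and 4 rose and 2 fell in WT liver. The counts as deposited were 2 higher and 0 lower in lsPERK liver and 10 and 0 in WT liver, and with median centring 5 and 1 in lsPERK liver and 8 and 1 in WT liver. Mafk, a small MAF protein that pairs with NRF2 on DNA, averaged 219.5 ± 31.8 in lsPERK tunicamycin and 508 ± 166 in WT tunicamycin liver (SD, n = 4 each), against 117 ± 39.8 in lsPERK control and 102 ± 19.0 in WT control liver (n = 3 each). It rose by 0.96 on the log2 scale in lsPERK liver and by 2.28 in WT liver, and the responses differed by −1.32 (limma adjusted p = 0.0216). The lsPERK rise was not called in the values as deposited (0.85, adjusted p = 0.224). Maff, another small MAF, rose by 1.80 in lsPERK liver (adjusted p = 0.00118) and was higher there than in WT liver under tunicamycin by 1.20 (adjusted p = 0.00432). Syvn1, the ER-membrane ubiquitin ligase HRD1 that can also degrade NRF2, rose by 2.68 in lsPERK liver and by 3.40 in WT liver, with a difference of −0.72 (adjusted p = 0.0202) that was not called with median centring (−0.59, adjusted p = 0.119). Gsk3b, a kinase that marks NRF2 for the ligase adaptor β-TrCP, rose by 1.16 in WT liver (adjusted p = 0.00109). Btrc, which encodes β-TrCP, fell by 0.93 in WT liver (adjusted p = 5.34e-04), a difference not called in the values as deposited (−0.42, adjusted p = 0.120). Cul3, the scaffold of the KEAP1 ligase, had a lsPERK minus WT difference of −0.47 under tunicamycin (adjusted p = 0.00514).

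Of 7 measured haem and iron genes, lsPERK liver had 3 lower and 0 higher under tunicamycin, and 1 rose and 5 fell in WT liver. Hmox2, the constitutive haem oxygenase, was the one that rose: it averaged 1516 ± 45.6 in lsPERK tunicamycin liver against 3284 ± 62.8 in WT tunicamycin liver (SD, n = 4 each), and its responses differed by −1.04 (limma adjusted p = 3.77e-04). Blvra, biliverdin reductase A, which acts on the product of haem oxygenase, fell by 0.66 in lsPERK liver and by 1.83 in WT liver on the log2 scale. Abcb6, a porphyrin transporter, fell by 0.55 in lsPERK liver and by 1.63 in WT liver, and Fech, which inserts iron into haem, fell by 0.53 in WT liver. The lsPERK calls rest on the scale: 0 haem and iron genes were called there as deposited or with median centring, where Blvra had −0.69 and −0.57 (adjusted p = 0.223 and 0.0951) and Abcb6 −0.53 and −0.42 (adjusted p = 0.126 and 0.0861). The WT fall of Fech was not called as deposited (−0.21, adjusted p = 0.230). All 3 had more positive responses in lsPERK liver, by 1.16 for Blvra, 1.09 for Abcb6 and 0.60 for Fech (adjusted p = 0.0124, 0.00139 and 0.00319). In the values as deposited these 3 differences of responses were not called, and those for Hmox1 and Hmox2 were.

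Of 8 measured thioredoxin and peroxiredoxin genes, lsPERK liver had 2 higher and 1 lower under tunicamycin, and 0 rose and 4 fell in WT liver. Txnip, which binds and inhibits thioredoxin, averaged 2531 ± 467 in lsPERK tunicamycin and 817 ± 79.8 in WT tunicamycin liver (SD, n = 4 each), against 1017 ± 132 in lsPERK control and 2054 ± 1060.4 in WT control liver (n = 3 each). It rose by 1.31 on the log2 scale in lsPERK liver and fell by 1.17 in WT liver, a difference of 2.47 between the responses (limma adjusted p = 0.00141). The WT fall was not called in the values as deposited (−0.64, adjusted p = 0.102), and the arrays of the WT groups overlapped by a small margin. Txnrd3, a thioredoxin reductase best known from testis, fell by 1.10 in lsPERK liver (adjusted p = 1.62e-04) and was lower there than in WT liver under tunicamycin by −1.14. Txn1, thioredoxin itself, and Prdx2, a peroxidase that uses it, fell by 0.60 and 0.79 in WT liver (adjusted p = 8.14e-05 and 3.02e-05). Of 8 measured glutathione genes, lsPERK liver had 1 lower, and 1 rose and 2 fell in WT liver. Gstk1, the mitochondrial and peroxisomal glutathione transferase, fell by 0.39 in lsPERK liver (adjusted p = 0.0326) and by 1.17 in WT liver. Its lsPERK call was lost as deposited (−0.39, adjusted p = 0.169) and with median centring (−0.27, adjusted p = 0.348), and no glutathione gene was called there with the replicate number as a block. Slc7a11, the cystine transporter that feeds glutathione synthesis, has 2 probe sets, which did not pass the filter.

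Of 20 measured genes of NRF2-linked detoxification, none was called in lsPERK liver, and 1 rose and 8 fell in WT liver. Under tunicamycin 4 were higher and 1 was lower in lsPERK liver than in WT liver. Cbr1, a carbonyl reductase, averaged 3494 ± 794 in lsPERK tunicamycin and 1059.8 ± 229 in WT tunicamycin liver (SD, n = 4 each) and fell by 1.4 on the log2 scale in WT liver (limma adjusted p = 3.46e-04). Osgin1, an oxidative stress-induced growth inhibitor, fell by 1.10 in WT liver (not called as deposited, −0.60, adjusted p = 0.0771) and was higher by 1.71 in lsPERK than in WT liver under tunicamycin (adjusted p = 2.34e-05). Gsta4, a glutathione transferase for lipid aldehydes, and Ugt2b35, a glucuronosyltransferase, fell by 1.13 and 1.23 in WT liver. Gstm3, a mu-class glutathione transferase, was the one that rose, by 1.15 in WT liver (adjusted p = 0.0159). Of 5 efflux pumps, Abcc3, which exports glucuronides across the basolateral membrane, fell by 1.46 in WT liver (adjusted p = 1.15e-05) and was the one called.

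Of 5 measured NADPH enzymes, 0 were called in lsPERK liver, and 0 rose and 3 fell in WT liver. Taldo1 and Tkt, enzymes of the pentose phosphate pathway, fell by 0.71 and 0.55, and Idh1, the cytosolic isocitrate dehydrogenase, fell by 0.32 (limma adjusted p = 6.22e-05, 0.00303 and 0.00711). In the values as deposited none of these 3 was called. Of 4 measured superoxide dismutase and catalase genes, Sod2, the mitochondrial dismutase, fell by 0.64 in WT liver (adjusted p = 5.85e-06) and the other 3 were not called. Of 7 measured autophagy receptors and partners of p62, 0 rose and 2 fell in lsPERK liver, and 2 rose and 3 fell in WT liver. Calcoco1, an autophagy receptor, fell by 0.83 in lsPERK liver and by 1.12 in WT liver. Gabarapl1, a protein of the autophagosome membrane, had a lsPERK minus WT difference of −0.80 under tunicamycin (adjusted p = 5.13e-04). Nbr1, a receptor related to p62, rose by 0.26 in WT liver (adjusted p = 0.0248; 0.25 and adjusted p = 0.108 with median centring), against 1.11 for Sqstm1.

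For each member with a call, the 3 genes with the most similar profile over the 14 arrays were found by the root mean square difference of log2 levels, each profile centred on its mean. Closest to Sqstm1, whose own SD over the arrays was 0.54, were Nmd3 at 0.08, Rnaseh1 at 0.09 and Arf6 at 0.10. The closest profile to Hmox1, with an SD of 1.02, was Slc41a3 at 0.48, and the closest to Nqo1, with an SD of 0.58, was Rnf135 at 0.15. For Srxn1 it was Supt5 at 0.22 against an SD of 0.71, for Gclm it was Cisd1 at 0.11 against 0.32, for Gsr it was Itfg1 at 0.10 against 0.31, and for Nfe2l2 it was Klhl28 at 0.08 against 0.21. No closest profile was another of the 10 genes. These distances describe 14 arrays that share 4 groups.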

How the data were processed

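Per the labels' protocols, biotinylated cRNA was made from total liver RNA by a standard Affymetrix 3′ method. The authors deposited 1 linear intensity per probe set and array, made with MAS5 and GCOS per the submitters' processing notes. The sources used here give no version, scaling target or genome build. The deposited intensities were put on the log2 scale with no pseudocount. Array medians ran from 34.5 to 53.4, a gap of 0.63 on the log2 scale, and the arrays were therefore quantile normalized. Levels are given on this scale, back on linear units.

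Of 45101 probe sets, 64 controls were left out. The platform annotation gave 1 gene for 34945 probe sets, several for 932 and none for 9160, and probe sets without a single gene were not used. Probe sets had to exceed the median over all arrays (5.37 on the log2 scale, or 41.5 in intensity) on 3 or more arrays, which 25316 did, and the 12085 genes were each represented by the kept probe set with the highest mean. The fit of the 4 group means over all 14 arrays used limma 3.58.1 (lmFit, then eBayes with a trend) under R 4.3.3, with 10 residual degrees of freedom and 5 two-sided contrasts. P-values were adjusted by Benjamini-Hochberg over all genes, or over all kept probe sets where a dimmer probe set is given. Such adjusted p-values come from these limma fits.

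The 10 genes, the 9 pathway lists and the marker lists were chosen with earlier results of these data known, so lists are described by counts and medians with no test of their own. The text names all 10 genes, Eif2ak3, Xist, a few stress genes, up to 4 called genes per pathway list and comparison in order of p, and the 3 nearest profiles of each called member. Dimmer probe sets, and Slc7a11 and Cd5l, are named in addition. The fits were tested on simulated data. Alternatives covered the values as deposited, median centring, other filters, an added constant, the mean of a gene's probe sets, no trend, covariates for Xist status and the 3′ to 5′ β-actin ratio, the replicate number as a block, only the groups compared, subsets by Xist status and each array left out. Promoters were taken from RefSeq (GRCm38.p6). Python 3.11.15 and matplotlib 3.10.9 searched the motifs and drew the figures. The number of arrays limits the precision.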

Additional observations from a re-analysis of the deposited data

Results flagged for a closer look

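Hmox1 on lsPERK tunicamycin replicate 1 read 295.1, while the other 3 arrays of that group read 155 to 168. On the log2 scale the gap to the nearest array made up 0.875 of the range of the group, past Dixon's 95% limit for 4 samples. Chance flags about 1 in 20 groups in this way, and each of the 10 genes has 2 groups of 4 arrays. A single flag among them is near that rate. The same array was Xist-high, as was replicate 2 of that group, which read 155.

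The tunicamycin response differed between lsPERK and WT liver for 3 of the 10 genes by the test of the difference itself, beside 19.9% of all genes. It differed by −2.58 on the log2 scale for Hmox1, with a lsPERK response of −1.02 and a WT response of 1.56. It differed by −1.06 for Sqstm1, with 0.05 in lsPERK liver and 1.11 in WT liver. It differed by 0.70 for Gsr, with 0.05 in lsPERK liver and −0.65 in WT liver. The Gsr call was lost in 6 of 26 alternatives, with a difference of 0.15 as deposited and 0.55 with median centring. The cause of these differences was not tested.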

How the results depend on the processing

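The number of the 10 genes called was 3 in the lsPERK response and 7 in the WT response, beside 15.7% and 46.7% of all genes. In the values as deposited it was 0 and 4. In the lsPERK response it was 1 with no filter, 1 without a trend, 1 with the β-actin ratio as a covariate and 0 with Xist-low arrays alone. Leaving out each array in turn gave 1 to 3 in the lsPERK response, 5 to 8 in the WT response, 3 to 5 for lsPERK against WT under tunicamycin, 2 to 4 for the difference of responses and 0 between the DMSO groups. The lsPERK count was 1 without lsPERK tunicamycin replicate 2 or 4, WT tunicamycin replicate 3, lsPERK control replicate 2 or WT control replicate 2. The lsPERK calls lost were those of Srxn1 and Gclm, with adjusted p of 0.0476 and 0.0474, and, as deposited and with Xist-low arrays alone, also that of Nqo1. No call changed sign in any alternative. The Sqstm1 calls, the Hmox1 call between genotypes under tunicamycin and the WT call of Srxn1 held in every alternative, where the Xist-high fit has a lone WT array per treatment. The labels do not say whether a replicate number marks arrays that belong together, and the correlations do not settle it. Same-numbered arrays had deviations correlated at −0.25 to 0.38, −0.37 to 0.42, 0.16 to 0.35 and 0.19 for numbers 1 to 4. Of the 14 arrays, 6 correlated best with their own number. With the replicate number as a block, 4 genes were called in the lsPERK response, 8 in the WT response, 4 between genotypes under tunicamycin, 3 for the difference and 0 between the DMSO groups. The added calls were Hmox1 in lsPERK liver (−1.0, adjusted p = 0.0470) and Gclc in WT liver (−0.68, adjusted p = 0.0260).

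With 3 or 4 arrays per group, and Xist-high subsets with 1 WT array per treatment, small changes cannot be told from none. In those subsets the lone array is assumed to vary like the other groups. The all-gene median of the difference of responses was 0.08 after quantile normalization, −0.42 as deposited and −0.01 with centring. Small changes therefore depend on the scale, and so do some larger ones, such as the Gsr difference of responses (0.70, and 0.15 as deposited). RNA was measured, and neither NRF2 protein nor its binding was. The cause of calls lost in an alternative was not tested.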

Other observations

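Hspa5, the ER chaperone BiP, averaged 17930.3 ± 110.3 in lsPERK tunicamycin and 19717 ± 944 in WT tunicamycin liver (SD, n = 4 each), against 8848 ± 694 in lsPERK control and 8254 ± 1117 in WT control liver (n = 3 each). It rose in lsPERK liver (log2 1.02) and in WT liver (1.26), and the difference of the responses was −0.24 (95% interval −0.49 to 0.001, limma adjusted p = 0.159). Atf3, a stress-induced transcription factor, rose by 3.13 in lsPERK liver and by 7.66 in WT liver, a difference of −4.54 (adjusted p = 1.85e-04). The response of Sqstm1 was thus unlike that of Hspa5, with 0.05 in lsPERK liver and 1.11 in WT liver.

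Nqo1 was higher on Xist-high arrays of the lsPERK control group, at 300.3 and 232, than on its Xist-low array, at 159.7. In WT control liver it read 195 on the Xist-high array and 186 and 156 on the Xist-low ones. In lsPERK tunicamycin liver it read 133 and 121 on the Xist-high arrays and 110.2 and 113 on the Xist-low ones. WT tunicamycin liver went the other way, with 79.3 on the Xist-high array and 86.6, 99.3 and 86.7 on the Xist-low ones. Gclc read 1828 on the Xist-high array of WT tunicamycin and 2783, 3721 and 5251 on its Xist-low arrays. The labels give no sex, and these within-group differences were not tested.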
